A study of Mus musculus with 18 samples.

Results

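The comparison of susceptible with unsusceptible mice in the nucleus accumbens (NAc) rests on 6 of the 18 arrays of the series, the 3 pools titled as the susceptible group and the 3 titled as the unsusceptible group of that structure. All 44505 probes with values were compared. The animals were male C57BL/6J mice of 10.5 weeks, and each array carried RNA pooled from 4 of them. Susceptible and unsusceptible name behavioural classes in a study of social defeat, and per the design text the pools of a class had similar avoidance scores. The NAc control group, also 3 pools, consisted of undefeated mice of the same strain, sex and age. The ventral tegmental area (VTA) of the same 3 behavioural classes was measured with 3 pools each. A class that is assigned from behaviour is not a treatment, and a pool of 4 animals hides the spread between animals, so every p-value below measures the spread between pools. The authors' own analysis, by the design text, set each defeated group against control, and the direct contrast of the 2 classes is the question taken here.

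In the social defeat paradigm a mouse is exposed to an aggressor, and afterwards some animals avoid social contact while others do not. The NAc, the ventral part of the striatum, is made up mostly of GABAergic medium spiny projection neurons, which divide into cells with the D1 and cells with the D2 dopamine receptor. It receives dopamine from the VTA and glutamate from cortex, hippocampus, amygdala and thalamus, and it is known for its part in reward and in responses to stress.

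Levels are log2 of the scanner intensity after quantile normalization over all 18 arrays, without background subtraction, so a difference understates the fold change of a dim probe. Defining markers were checked against the labelled tissue. The mean level of 25 medium spiny markers ran from 11.8 to 12.2 in the 6 pools and from 9.33 to 9.61 in the susceptible and unsusceptible VTA pools, while 13 dopamine neuron markers lay at 7.88 to 8.05 in the NAc. Correlations over all probes ran from 0.9926 to 0.9940 among susceptible pools, from 0.9911 to 0.9934 among unsusceptible pools and from 0.9908 to 0.9936 between the 2 classes, so a pool resembled the pools of the other class about as much as those of its own. Unsusceptible pool 3 stood apart as the brightest array of the series before normalization, with an upper quartile of 833.2 where the other 5 pools had 339.2 to 374. On the first principal component of the NAc arrays, with 23.3% of their variance, it lay at 21.66, where the other unsusceptible pools lay at 4.72 and 6.90 and the susceptible pools between 3.23 and 8.41. NAc control pool 3 lay further out on the other side, at -31.97, where the other NAc control pools lay at -10.71 and -6.25. Its upper quartile of 287.3 was the lowest of the series. That pool enters the control values and the shared error estimate used below. In the VTA, unsusceptible pool 3 had a mean dopamine neuron marker level of 9.47, where the other defeated VTA pools lay between 11.01 and 11.71. This touches every VTA value given below.

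Little separated the 2 classes at the level of single probes. Of 44505 probes, 1 passed limma's test at an adjusted p below 0.05, a share of 0.00225%, and it was higher in the susceptible pools. At an unadjusted p below 0.05 there were 1089 probes higher (2.45%) and 873 lower (1.96%) in susceptible pools, together 1962, against 2225.25 that a threshold of 0.05 gives when nothing differs. With each array scaled to its median in place of quantile normalization, that split turned to 1160 higher and 2397 lower, while the median difference of bright probes moved from -0.01 to -0.22. Median scaling leaves the spread of an array as it is. Before normalization, unsusceptible pool 3 had a median of 253.1 and an upper quartile of 833.2. The other NAc pools of both classes had medians of 158.8 to 174.3 and upper quartiles of 339.2 to 374. The part of that pool in the median-scaled differences was not tested. In 2361 probes (5.31%) the 3 susceptible pools all lay above the 3 unsusceptible pools, and in 2226 (5%) they all lay below. The 5th and 95th percentiles of the differences were -0.17 and 0.18 log2 units, and 70 probes differed by more than 0.5, of which 61 were higher and 9 lower in susceptible pools. A probe of median error (SE 0.10) needed an observed difference of 0.21 to reach even an unadjusted p of 0.05. To pass after adjustment, a probe of that error needed a larger one. With the NAc compared to undefeated controls in the same model, 29 probes passed for susceptible and 1 for unsusceptible pools. At an unadjusted p below 0.05 the order was the other way, with 3661 probes (8.23%) for susceptible and 5096 (11.5%) for unsusceptible pools. These comparisons share the control pools.

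**Figure D1:**
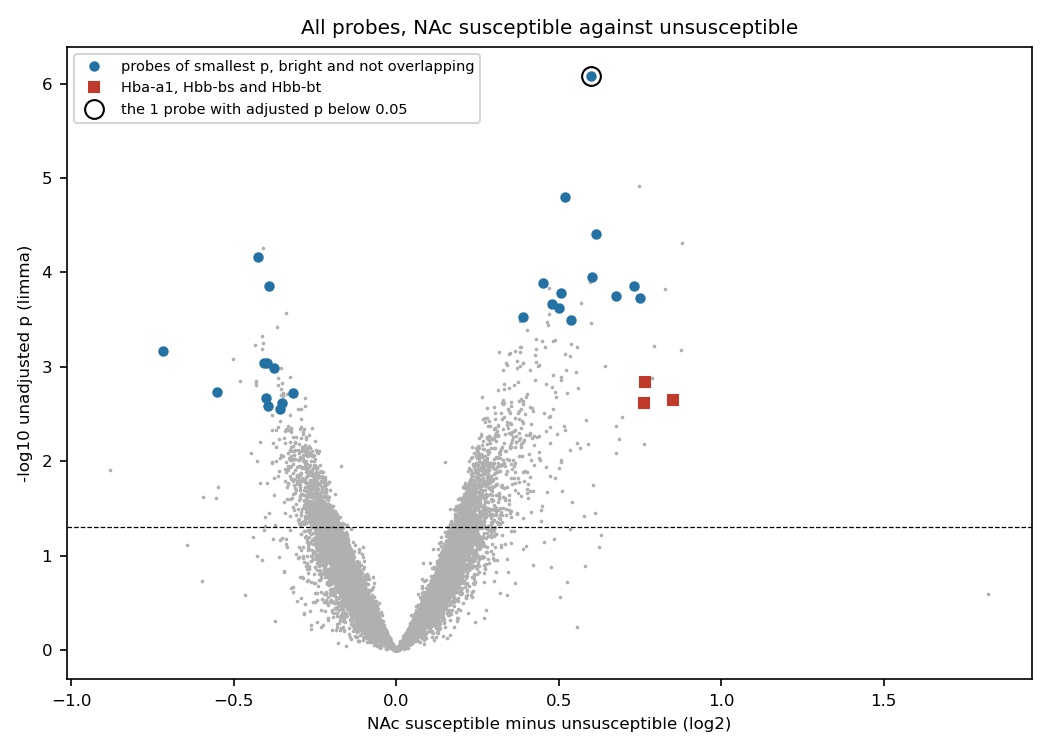
Each grey point is 1 of the 44505 probes, with the susceptible minus unsusceptible difference in the NAc on the x axis (log2) and the negative log10 of the unadjusted p from limma on the y axis. The dashed line marks an unadjusted p of 0.05, and the circle marks the 1 probe that passed after adjustment, at 0.60 log2 units.

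The probe that passed, 104010026, has no gene listed in the platform annotation, so what it measures is not known here. Its levels were 8.40, 8.34 and 8.34 in the susceptible pools, 7.82, 7.79 and 7.68 in the unsusceptible pools and 8.34, 8.18 and 8.25 in the undefeated controls. The susceptible pools and the controls thus lay together, and the unsusceptible pools lay below both. The difference between the classes was 0.60 ± 0.09 log2 units (SE, 3 against 3 pools), or 1.52-fold, with an adjusted p of 0.0368. Against control, the unsusceptible pools differed by -0.49 (adjusted p 0.0615) and the susceptible pools by 0.11 (adjusted p 0.822). In the VTA the difference between the classes was 0.02, and the test of NAc against VTA gave an unadjusted p of 0.000152 and an adjusted p of 0.962. The call did not hold when any 1 of the 6 pools was left out (adjusted p 0.0836 to 0.518), nor with median scaling (0.508), with normexp background correction (0.0585) or with the NAc arrays fitted alone (0.0799). It was kept in 7 of 16 alternatives, and the difference itself stayed between 0.50 and 0.72 in all of them.

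No named gene passed. The 12 named bright probes of smallest p among those with all susceptible above all unsusceptible pools had differences of 0.39 to 0.75 and adjusted p values of 0.238 to 0.566. They share a position relative to the controls: the mean of the undefeated pools lay above that of the unsusceptible pools for 12 of 12, the unsusceptible pools differed from control by -0.73 to -0.16, and the susceptible pools by -0.05 to 0.35. Since the 12 were chosen for susceptible values above unsusceptible ones, this position is a description. With median scaling the 12 differences were smaller, at 0.12 to 0.53, beside a median of -0.22 over bright probes. The genes are taken by their known roles, an order made here with no list or test behind it.

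Ddx27, a nucleolar RNA helicase, had the smallest p of any named gene. It lay at 9.09, 9.13 and 9.02 in susceptible, at 8.71, 8.56 and 8.41 in unsusceptible and at 9.08, 9.14 and 8.95 in control pools, a difference of 0.52 ± 0.10 (adjusted p 0.238). Each susceptible and control pool was above each unsusceptible pool, but the other probe of Ddx27 gave 0.07. Bcl11b, a transcription factor that medium spiny neurons need to mature, was at 10.73, 10.64 and 10.77 in susceptible and 10.40, 10.02 and 9.87 in unsusceptible pools (0.61 ± 0.12, adjusted p 0.408). Controls, at 10.90, 10.54 and 10.40, overlapped the susceptible pools and lay above the unsusceptible ones, although the lowest control and the highest unsusceptible pool were almost level. Its second probe, the brighter one, gave 12.18, 11.97 and 12.25 against 11.88, 11.80 and 11.52 (0.40 ± 0.12), again without overlap, but there the controls, at 11.59, 11.76 and 11.59, lay with the unsusceptible pools, and with median scaling its difference was 0.03. The 2 probes of this gene thus agree on the order of the classes and differ on where the controls lie.

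Ankrd11, a chromatin regulator, had 9.51, 9.43 and 9.43 in susceptible and 9.09, 8.54 and 8.55 in unsusceptible pools (0.73 ± 0.16, adjusted p 0.471), with controls at 9.56, 9.47 and 8.82. Susceptible pools were within 0.1 of one another, while unsusceptible and control pools were spread more widely. Psip1, a coactivator bound to chromatin, differed by 0.68 ± 0.15, Cbx3, which codes for heterochromatin protein HP1 gamma, by 0.48 ± 0.11, and Tnrc6b, a scaffold of microRNA-guided silencing, by 0.45 ± 0.10. Other probes of these 3 genes did not show this, with differences of -0.12 to 0.03 for Psip1, -0.16 to -0.06 for Cbx3 and -0.14 to 0.04 for Tnrc6b. Prrc2c, an RNA-binding protein, held together better: its probe of smallest p lay at 8.86, 8.90 and 8.87 against 8.49, 8.51 and 8.46 (0.39 ± 0.09, adjusted p 0.566), and its other 3 probes gave 0.19 to 0.50, of which 2 had an unadjusted p below 0.05. The brain-enriched long noncoding RNA Snhg11 differed by 0.54 ± 0.13, from 12.14, 12.05 and 11.99 in susceptible to 11.72, 11.66 and 11.19 in unsusceptible pools, the lowest being unsusceptible pool 3.

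Gria3, a subunit of the AMPA glutamate receptor, was at 9.87, 10.02 and 10.12 in susceptible, at 9.58, 9.28 and 9.61 in unsusceptible and at 9.80, 9.60 and 9.56 in control pools (0.51 ± 0.11, adjusted p 0.486). Here the susceptible pools lay above the controls too. All 3 of its other probes had the same sign, at 0.06 to 0.39, and 2 of them an unadjusted p below 0.05. Syt1, the calcium sensor of transmitter release, had 9.25, 9.15 and 9.25 against 8.74, 8.33 and 8.77 (0.60 ± 0.13, adjusted p 0.471), and its other 2 probes gave 0.10 and 0.30. Map1a, a microtubule-associated protein of dendrites, had 9.33, 9.40 and 9.32 against 8.89, 8.59 and 8.33, with controls at 9.57, 9.51 and 8.93. Its difference of 0.75 ± 0.17 (adjusted p 0.491) was the largest of the 12. Cntn2, an axonal adhesion molecule, differed by 0.50 ± 0.12, with levels of 11.18, 11.30 and 11.07 against 10.86, 10.65 and 10.53 and controls at 11.06, 11.18 and 10.94. For each of these 4 genes the pools of the classes did not overlap, a feature they were chosen for. Among the 12, unsusceptible pool 3 was the lowest for Ddx27, Bcl11b, Tnrc6b, Psip1, Cbx3, Prrc2c, Snhg11, Map1a and Cntn2, as for the called probe. It was not the lowest for Ankrd11, Gria3 or Syt1.

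**Figure D2:**
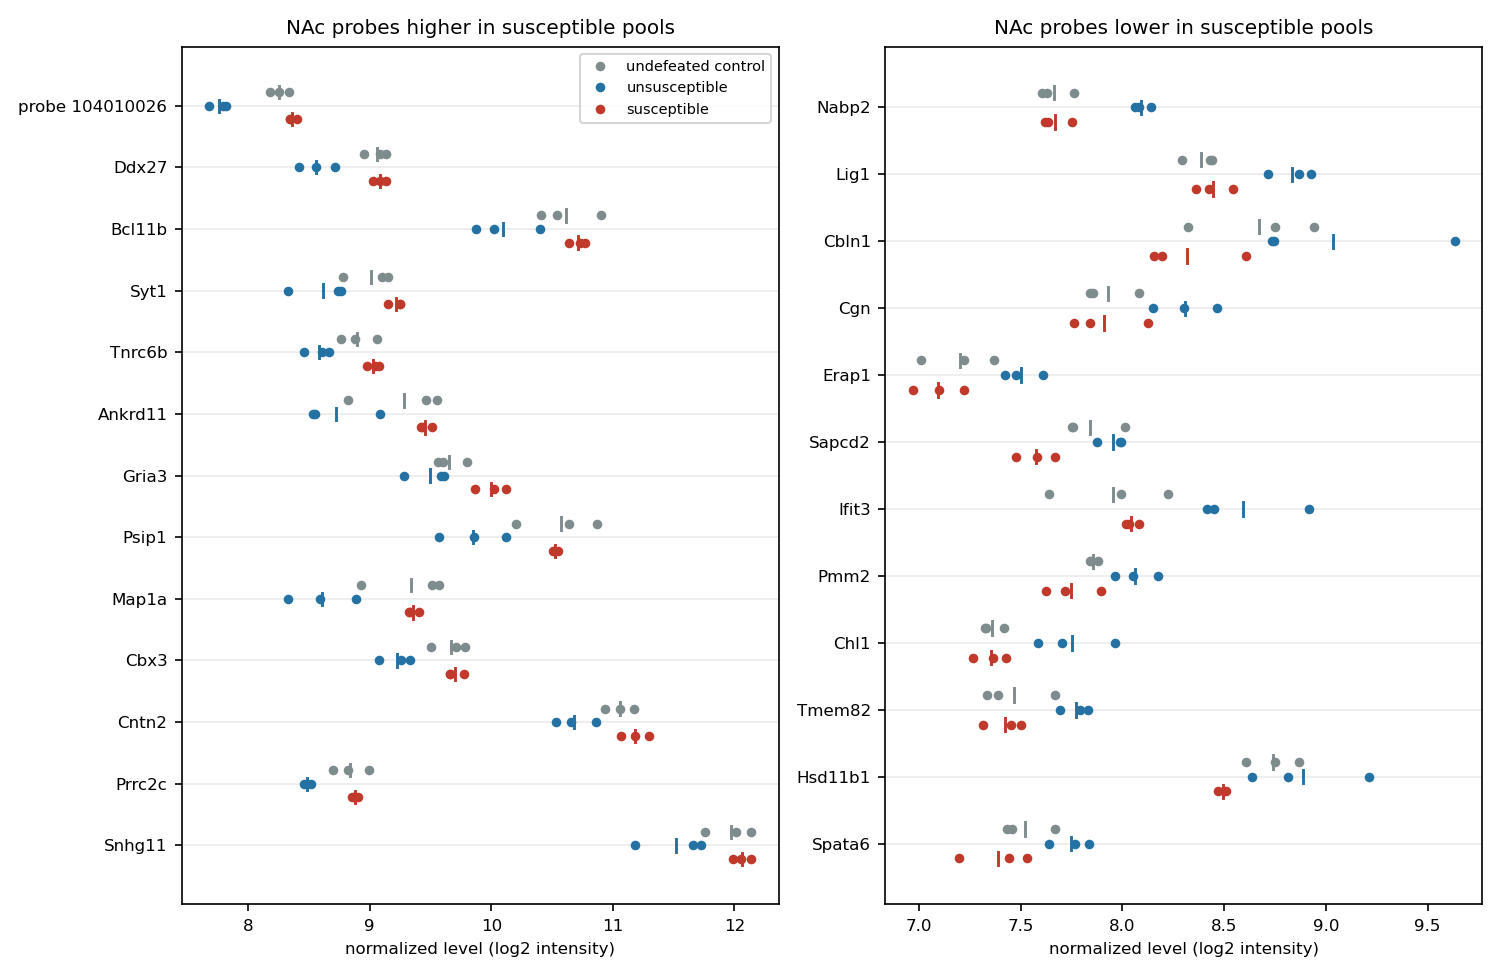
Normalized log2 intensity of each NAc pool (points) with the group mean (short bars) for the called probe and the 12 named bright probes of smallest p with higher (left) and with lower (right) values in susceptible pools. On the left the mean of the undefeated controls lies above the unsusceptible mean for 12 of 12 genes, and on the right Cbln1 has a single high pool, unsusceptible pool 1, at 9.63.

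On the lower side, the 12 named probes had differences of -0.72 to -0.32 and adjusted p values of 0.432 to 0.874. The control mean lay below the unsusceptible mean in all of them, with unsusceptible minus control differences of 0.11 to 0.64. These genes too were chosen for the order of the classes, so this position is a description. With median scaling the 12 differences were larger, at -0.97 to -0.42. Nabp2 and Lig1 had the smallest p. Nabp2, a single-strand DNA binding protein, was at 7.64, 7.75 and 7.62 in susceptible, 8.14, 8.08 and 8.06 in unsusceptible and 7.61, 7.63 and 7.76 in control pools (-0.42 ± 0.09, adjusted p 0.432). DNA ligase 1, Lig1, was at 8.54, 8.42 and 8.36 against 8.93, 8.71 and 8.87, with controls at 8.29, 8.43 and 8.44 (-0.39 ± 0.09, adjusted p 0.471). Both had susceptible and control pools at one level and unsusceptible pools above them, but the other 2 probes of Lig1 gave -0.16 and 0.04.

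Cbln1, a secreted organizer of synapses, had the largest difference of the 12, at -0.72 ± 0.18 (adjusted p 0.613). It was at 8.61, 8.16 and 8.20 in susceptible and at 9.63, 8.74 and 8.73 in unsusceptible pools, with controls at 8.32, 8.94 and 8.75. Unsusceptible pool 1 was far above the others, and without it the difference was -0.42. The same pool was high for the vesicular glutamate transporter Slc17a6, at 11.32 where the other 2 unsusceptible pools lay at 9.65 and 9.86 and the susceptible pools at 9.71, 9.99 and 9.19. Slc17a6 marks glutamate neurons of thalamus and other subcortical regions, and its part in the Cbln1 difference was not tested. Hsd11b1, the enzyme that regenerates active glucocorticoid, was also highest in that pool, with 8.47 to 8.51 against 9.21, 8.64 and 8.81 (-0.39 ± 0.12), and without it the difference was -0.23.

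Ifit3, induced by interferon, had a difference of -0.55 ± 0.16 and is taken up with its family below. The peptide-trimming aminopeptidase Erap1 (-0.41 ± 0.11), the tight junction protein cingulin, Cgn (-0.40 ± 0.10), the adhesion molecule Chl1 (-0.40 ± 0.12), Sapcd2 (-0.38 ± 0.10), the N-glycosylation enzyme Pmm2 (-0.32 ± 0.09), Tmem82 (-0.35 ± 0.10) and Spata6 (-0.36 ± 0.11) made up the rest. Other probes disagreed for Spata6, with 0.02 to 0.31, and for Cgn, with -0.02 and 0.09. They had the same sign for Erap1 (-0.20 and -0.10), Pmm2 (-0.13 to -0.03) and Chl1 (-0.18 to -0.03), with smaller differences.

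Red cell transcripts were the group with the largest differences, although no member passed the adjusted test. All 12 probes of adult globin genes lay higher in susceptible pools, by 0.57 to 0.85 log2 units. The 12 were a probe each of Hba-a1, Hbb-b2 and Hbb-bt, and all the others were probes of Hbb-bs. They are thus not 12 separate genes. Globins carry oxygen in red cells, and close copies of one another cannot be told apart reliably by these probes. The beta globin gene Hbb-bt was at 12.13, 11.89 and 11.49 in susceptible, 10.70, 11.13 and 11.14 in unsusceptible and 10.53, 9.97 and 9.46 in control pools. Its 3 groups were stepped, each susceptible pool above each unsusceptible pool and each unsusceptible above each control pool. The difference between the classes was 0.85 ± 0.25, or 1.80-fold, with an adjusted p of 0.856. The alpha globin gene Hba-a1, at 14.61, 14.53 and 14.37 against 13.28, 14.03 and 13.91, differed by 0.76 ± 0.21 (adjusted p 0.736), and its controls, at 13.38, 13.27 and 13.04, overlapped unsusceptible pool 1.

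Of the red cell list, 7 genes were measured, and 5 of them had an unadjusted p below 0.05, all higher in susceptible pools, with none lower. Of all genes, each by its brightest probe, 1.81% were higher and 2.15% lower at that threshold. The median difference of the list was 0.57, where the median over 17274 genes was -0.01, and with median scaling it was 0.26. The mean level of the list was 10.55 to 10.85 in susceptible, 9.97 to 10.31 in unsusceptible and 9.61 to 9.85 in control pools, without overlap between any of the 3 groups. Beside the globins, the erythroid haem synthesis gene Alas2 differed by 0.49, the red cell anion exchanger Slc4a1 by 0.12 and the membrane skeleton gene Epb42 by 0.08. In the VTA the list had a median of 0.64, and the test of NAc against VTA for Hba-a1 gave an unadjusted p of 0.788. In tissue RNA of this kind, fewer cells of a type and less RNA per cell cannot be told apart. The part of red cell RNA in the other differences of this comparison was not tested. Endothelial markers, of 18 genes measured, had a median of 0.04 with 0 higher and 2 lower at an unadjusted p below 0.05, Tek (-0.24) and Sox17 (-0.28).

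Transcripts of neutrophil granules and the acute phase were positive in 12 of 12 measured genes with a median of 0.14, where 44.4% of all genes were positive. Only 5 of the 12 were measured by a bright probe, and 1 reached an unadjusted p below 0.05. That was S100a9, a subunit of calprotectin, at 8.24, 8.14 and 9.18 in susceptible and 8.29, 8.05 and 7.48 in unsusceptible pools (0.58 ± 0.26). The classes overlapped. Susceptible pool 3 was the highest and unsusceptible pool 3 the lowest, and the difference was 0.25 without the first and 0.34 without the second. Its partner S100a8 differed by 0.53 ± 0.26 and lipocalin 2, Lcn2, by 0.48 ± 0.30, both with overlap. The S100a8 difference was 0.19 without susceptible pool 3 and 0.31 without unsusceptible pool 3. That of Lcn2 was -0.03 without unsusceptible pool 3 and 0.79 without unsusceptible pool 2. The controls, at 7.05 to 7.30 for these 3 genes, lay below every pool of both classes.

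**Figure D3:**
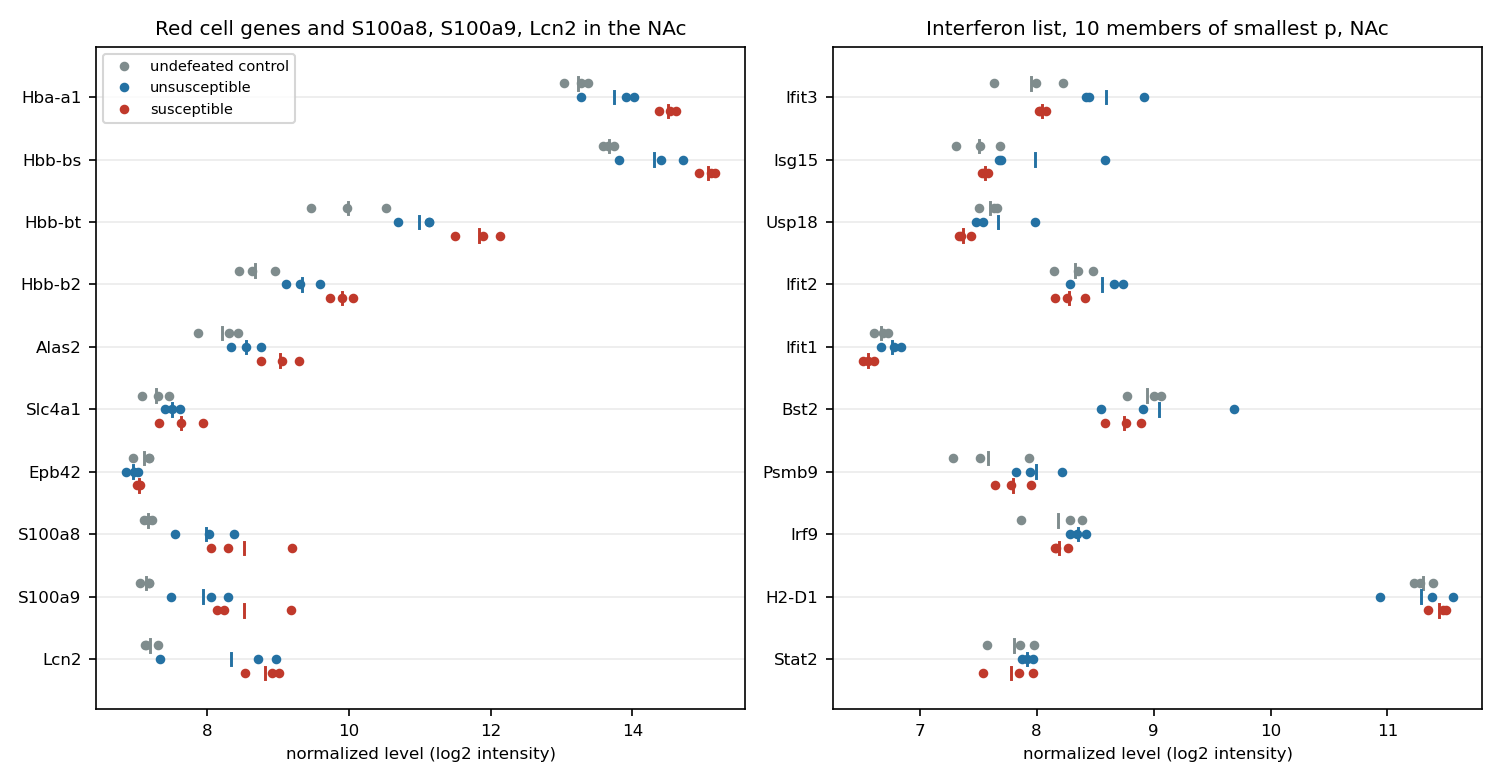
Normalized log2 intensity of each NAc pool (points) with group means (short bars) for red cell genes with S100a8, S100a9 and Lcn2 (left) and for the 10 interferon list members of smallest p (right). Group means of the globins step from control over unsusceptible to susceptible pools, and Isg15 has 1 high unsusceptible pool at 8.59.

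Genes of the interferon response gave no call. The 24 interferon and antigen presentation genes had a median of -0.07. At an unadjusted p below 0.05, 5 were lower and 0 higher, beside 2.15% and 1.81% of all genes. The 5 were Ifit3 (-0.55), Ifit2 (-0.28) and Ifit1 (-0.21), antiviral proteins of 1 interferon-induced family, the ubiquitin-like modifier Isg15 (-0.43) and the protease Usp18 (-0.30), which removes it. Ifit3 was at 8.08, 8.02 and 8.03 in susceptible, 8.45, 8.92 and 8.42 in unsusceptible and 8.22, 7.99 and 7.64 in control pools, and its other 2 probes gave -0.34 and -0.29. Isg15 was at 7.54, 7.58 and 7.55 against 7.68, 8.59 and 7.69. Unsusceptible pool 2 was the highest for Ifit3, Isg15 and Usp18 alike. Without it the differences were -0.39 for Ifit3, -0.13 for Isg15 and -0.14 for Usp18. The mean level of the list was 8.53 to 8.62 in susceptible and 8.55 to 8.86 in unsusceptible pools, with overlap. In the VTA the median of the list was 0.06.

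Genes of medium spiny neurons, the main neurons of the tissue, gave a mixed picture with a median near 0. The 25 markers shared by both types of these neurons had a median of 0.04. In susceptible pools 3 of them were higher at an unadjusted p below 0.05, beside 1.81% of all genes. Beside Bcl11b these were Gnal, the G protein subunit that couples striatal dopamine and adenosine receptors to cAMP, at 11.85, 11.83 and 12.17 against 11.48, 11.44 and 11.41 (0.51 ± 0.18), and the phosphodiesterase Pde10a (0.35 ± 0.16), whose difference was -0.01 with median scaling and 0.23 without unsusceptible pool 3. The controls of Gnal, at 11.82, 11.73 and 10.96, spanned both classes. With median scaling the Gnal difference was 0.14. Other probes of Gnal gave -0.03 to 0.20, and the other probe of Pde10a gave -0.07.

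Markers of the direct pathway, 12 genes with a median of -0.02, and of the indirect pathway, 10 genes with a median of 0.03, had 0 members at an unadjusted p below 0.05. The dopamine receptor genes Drd1 and Drd2 differed by 0.04 (95% interval -0.31 to 0.39) and 0.12 (-0.33 to 0.58). The opioid peptide genes Penk and Pdyn differed by 0.06 (-0.32 to 0.44) and -0.06 (-0.36 to 0.23), the tachykinin gene Tac1 by -0.05 (-0.31 to 0.21), and Ppp1r1b, which codes for the dopamine-regulated phosphoprotein DARPP-32, by -0.02 (-0.34 to 0.30). The upper bound for Drd2, at 0.58, lies within the range of the named genes above. Dopamine receptor and cAMP signalling genes, 27 in all, had a median of -0.01 and 0 members at an unadjusted p below 0.05. Among 20 striatal interneuron markers, 1 was lower, calretinin, Calb2, at 9.84, 10.80 and 9.84 against 10.84, 10.29 and 11.01 (-0.55 ± 0.23), with overlap. Without susceptible pool 2 its difference was -0.87, and its other probe gave -0.13.

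None of the genes that the literature on social defeat often names was called, but probes of some of them disagreed. The neurotrophin Bdnf was at 7.62, 7.71 and 7.59 in susceptible and 7.73, 7.31 and 7.98 in unsusceptible pools (-0.03, 95% interval -0.29 to 0.23), and its receptor Ntrk2 differed by -0.13 (-0.33 to 0.06). Another bright probe of Ntrk2 gave 0.35 ± 0.10, with an unadjusted p of 0.00237 in the opposite direction. Fosb, a transcription factor gene that accumulates its product in the NAc under repeated stress, was at 12.39, 12.18 and 12.46 against 12.36, 12.26 and 12.52 (-0.03, -0.22 to 0.16). Fos differed by -0.07 (-0.58 to 0.45), the glucocorticoid receptor Nr3c1 by 0.14 (-0.10 to 0.37), its cochaperone Fkbp5 by -0.04 (-0.26 to 0.18), the GTPase Rac1 by -0.02 (-0.25 to 0.21), beta-catenin, Ctnnb1, by -0.01 (-0.21 to 0.18), Dicer1 by 0.08 (-0.19 to 0.36), Cdk5 by -0.03 (-0.21 to 0.15) and Gsk3b by 0.13 (-0.15 to 0.41). The other 2 probes of Gsk3b gave 0.16 and 0.40, the latter at an unadjusted p of 0.00527. The other probe of Ctnnb1, also bright, gave 0.18, opposite in sign. For the probes given above of Fosb, Fkbp5, Rac1, Ctnnb1 and Cdk5 the intervals reached no further than -0.26 and 0.21. With median scaling these 5 genes differed by -0.39 (Fkbp5) to -0.34 (Ctnnb1), outside those limits, where the median of bright probes was -0.22. Osbpl8, a lipid transfer protein gene, was 0.87 and 1.02 above control in susceptible and unsusceptible pools, at 9.64, 9.16 and 9.87 in susceptible, 9.69, 9.68 and 9.72 in unsusceptible and 8.87, 8.55 and 8.63 in control pools, and differed between the classes by -0.14 (-0.46 to 0.17).

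Ion channel and receptor genes gave few differences. Of 50 potassium channel subunits, 2 were higher and 1 lower at an unadjusted p below 0.05, with a median of 0.01. Kcnd2, a dendritic A-type channel, was at 10.40, 10.31 and 10.49 against 10.33, 9.98 and 9.50 (0.46 ± 0.19), Kcnh1 differed by 0.29 ± 0.13 and Kcnh2 by -0.28 ± 0.12. Without unsusceptible pool 3 the Kcnd2 difference was 0.24. With median scaling the differences were 0.13 for Kcnd2, -0.08 for Kcnh1 and -0.52 for Kcnh2, whose other probe gave 0.09. Kcnf1, Kcnh3 and Kcnq3 differed by -0.03 (95% interval -0.34 to 0.28), 0.04 (-0.15 to 0.24) and 0.14 (-0.08 to 0.36). In the VTA the difference of Kcnf1 was -0.44, and the test of NAc against VTA gave an unadjusted p of 0.0605.

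Of 23 sodium, calcium and HCN channel subunits, 2 were higher, the calcium channel auxiliary subunit Cacna2d1 (0.47 ± 0.16) and the sodium channel Scn1a (0.41 ± 0.17). The other 2 probes of Cacna2d1 gave -0.12 and 0.03. Among 17 glutamate receptor subunits, 1 was higher, the NMDA receptor subunit Grin2a (0.36 ± 0.12), at 8.66, 8.72 and 8.83 against 8.15, 8.66 and 8.30, and its other probe gave 0.07. Gria3 belongs to the same list but is counted there by its brightest probe, which differed by 0.06. Of 30 synaptic vesicle genes, 2 were higher, the SNARE regulator Cplx2, at 12.24, 12.12 and 12.02 against 11.82, 11.88 and 11.29 (0.46 ± 0.17), and the vesicle GTPase Rab3c (0.30 ± 0.12). Without unsusceptible pool 3 the Cplx2 difference was 0.27, and the other probes of Rab3c gave -0.06 and 0.16. Of 24 postsynaptic genes, 1 was lower, the scaffold Homer3 (-0.28 ± 0.09), and of 12 GABA receptor subunits, 1 was higher, Gabbr1 (0.24 ± 0.10), which turned to -0.13 with median scaling and whose other 3 probes gave -0.19 to 0.07. With median scaling the differences were 0.11 for Cacna2d1, 0.09 for Scn1a, 0.15 for Grin2a, 0.10 for Cplx2 and 0.03 for Rab3c. None of these passed after adjustment, each with an adjusted p of 0.999.

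Nuclear genes gave 4 members at an unadjusted p below 0.05 among 35 splicing factors, all higher in susceptible pools, with a list median of 0.00. Of all genes, 1.81% were higher at that threshold. Luc7l3 was at 13.13, 13.22 and 13.13 against 12.88, 12.63 and 12.91 (0.35 ± 0.11), and Srsf11 at 9.68, 9.49 and 9.60 against 9.34, 9.24 and 9.23 (0.33 ± 0.11). Tra2b differed by 0.22 and Hnrnpk by 0.24, the latter at -0.10 with median scaling. On that scale Luc7l3 differed by 0.01 and Srsf11 by 0.02. The other probe of Luc7l3 gave -0.10, while the other 2 of Srsf11 gave 0.05 and 0.09. Of 37 chromatin and DNA methylation regulators, 1 was higher, the histone acetyltransferase Crebbp (0.36 ± 0.12), at 0.19 with median scaling. Immediate early genes, 25 in all, had a median of 0.03 and 0 members at that threshold.

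Among glia, microglia markers were positive in 13 of 15 genes, where 44.4% of all genes were positive. Their median was 0.07, and 1 member, the fractalkine receptor Cx3cr1, had an unadjusted p below 0.05. It was at 10.45, 10.40 and 10.46 in susceptible, 10.26, 10.16 and 10.14 in unsusceptible and 10.41, 10.40 and 10.25 in control pools (0.25 ± 0.09), but its difference was -0.10 with median scaling. Astrocyte, oligodendrocyte and oligodendrocyte precursor markers had medians of -0.04, -0.03 and 0.02 with 0 members at that threshold, and 6 of 18, 6 of 17 and 6 of 9 genes were positive. Mural and meningeal markers, 17 genes, had a median of -0.01 and 0 members. Choroid plexus and ependymal markers were below 0 in 10 of 10 genes, 7 of them measured by a bright probe, with a median of -0.16. The mean level of that list was 7.93 to 8.09 in susceptible and 8.07 to 8.27 in unsusceptible pools, with overlap. It had 1 member at that threshold, the transcription factor Otx2 (-0.25 ± 0.11). Otx2 was at 7.42, 7.31 and 7.32 in susceptible and 7.39, 7.67 and 7.74 in unsusceptible pools, with overlap. These levels lie near the limit of 7.39 for a bright probe, while its mean over all arrays was 8.15. Dopamine neuron markers had a median of -0.11 and cortical excitatory markers one of -0.04, both with 0 members. Of 9 hypothalamic peptide genes, with a median of 0.02, vasopressin, Avp, was higher (0.24 ± 0.11) and histidine decarboxylase, Hdc, lower (-0.28 ± 0.13) at that threshold, both measured by dim probes and with overlap. Without unsusceptible pool 1 the Avp difference was 0.14, and without susceptible pool 1 that of Hdc was -0.12.

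In the 7 signalling and regulatory lists described next, no member was called, and each list had at most 1 member a direction at an unadjusted p below 0.05. Of 26 Wnt and beta-catenin genes, 1 was lower, the secreted protein gene Dkk3, at 13.38, 13.33 and 13.33 against 13.57, 13.49 and 13.76 (-0.26 ± 0.12), and its other probe gave -0.16. Among 19 glucocorticoid-responsive genes the transcription factor Zbtb16 was higher (0.20 ± 0.08), and among 23 neuropeptides and their receptors the neuropeptide Y receptor Npy5r was lower (-0.24 ± 0.11). Of 18 targets and partners of activity-dependent transcription, Creb3l2 was higher (0.23 ± 0.11) and the cAMP-responsive repressor gene Crem lower (-0.26 ± 0.11), and 4 of the 6 other Crem probes had the same sign. Without unsusceptible pool 1 the Creb3l2 difference was 0.10, and without unsusceptible pool 3 that of Crem was -0.17. The clock repressor Nr1d2 was higher among 20 circadian genes (0.34 ± 0.14), with overlap between the classes, a difference of -0.01 with median scaling, 0.20 without unsusceptible pool 3 and -0.15 at its other probe. On the median scale Dkk3 differed by -0.58 and Npy5r by -0.55. Neurotrophin signalling genes, 18 in all, and 19 inflammatory genes had a median of -0.03 each and 0 members at that threshold.

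Large housekeeping groups were close to 0. The 69 oxidative phosphorylation subunits had a median of -0.03, with 0 members at an unadjusted p below 0.05. In 6 of them all susceptible pools lay below all unsusceptible pools and in 0 above, beside 5% and 5.31% of all probes. Of 66 cytosolic ribosomal protein genes, 2 were lower, Rpl14 (-0.24 ± 0.10) and Rpl24 (-0.22 ± 0.10), and the median was -0.04. Proteasome and ubiquitin genes, heat shock chaperones and cholesterol synthesis genes had medians of 0.00, -0.03 and -0.03 with 0 members each. Over all 40 lists, 0 had a called member, 36 had a median within 0.1 of 0, and 16 had 0 members at an unadjusted p below 0.05. Of the 901 genes in them, 28 were higher (3.11%) and 18 lower (2.00%), beside 1.81% and 2.15% of all 17274 genes taken by their brightest probe. Whether these shares differ was not tested.

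**Figure D4:**
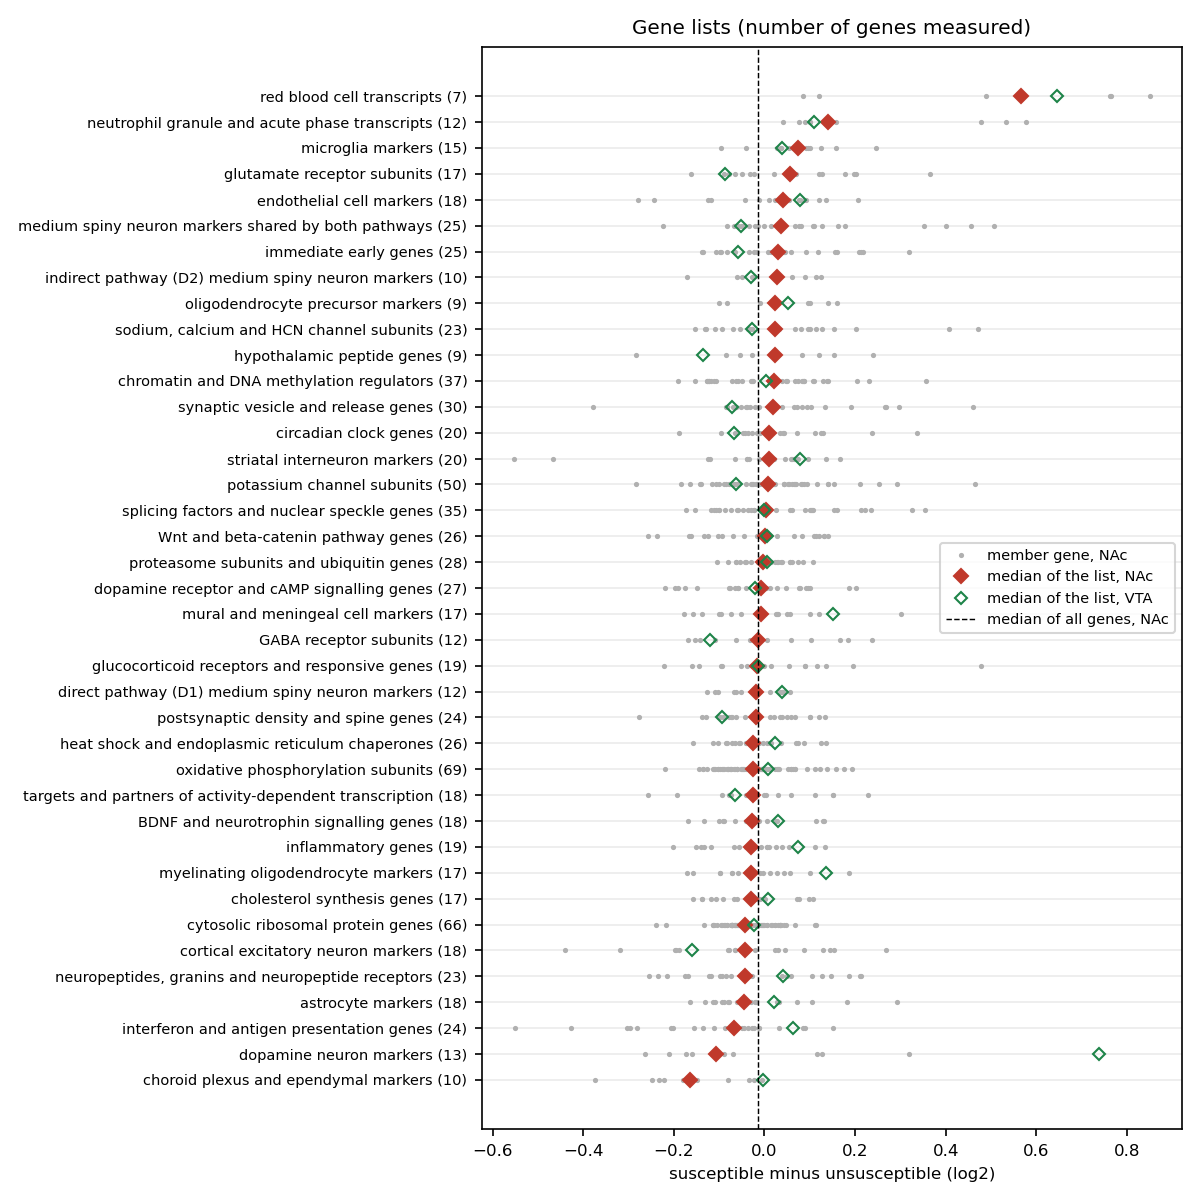
Susceptible minus unsusceptible differences (log2) of the members of 39 of the 40 gene lists in the NAc (grey points), with the list median in the NAc (filled diamonds) and in the VTA (open diamonds), and the median of all genes in the NAc as a dashed line. The red cell list stands out in both structures, with medians of 0.57 and 0.64, and the dopamine neuron list of the VTA, at 0.74, contains the pool whose dopamine marker level was 9.47.

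The same contrast in the VTA was used to see whether the NAc differences were shared. In the VTA, 0 of 44505 probes passed limma's test, with 2465 at an unadjusted p below 0.05, and 0 passed the test of the difference between the structures, with 2145 at an unadjusted p below 0.05, so no difference can be called particular to the NAc. The 12 named genes higher in NAc susceptible pools differed in the VTA by -0.08 to 0.17, with 0 at an unadjusted p below 0.05 there. Those 12 that were lower in the NAc differed by -0.09 to 0.24, with 1 of the same sign, Ifit3. Of the 12, 2 had an unadjusted p below 0.05 there, Erap1 (0.24) and Pmm2 (0.24), both higher in susceptible VTA pools and so opposite to the NAc. The tests of the difference between the structures gave unadjusted p values of 0.000957 to 0.0509 for the first set and 0.000234 to 0.0503 for the second, and an adjusted p of 0.962 for all of them. Both sets were chosen for a small p and for pools that did not overlap in the NAc. The tests of the difference between the structures contain that chosen NAc difference, so their p values are small in part through the choice. The VTA class differences were not used in the choice, but the VTA arrays entered the error estimate and the mean behind the bright filter. The globins were of like size in both structures, at 0.85 and 0.75 for Hbb-bt, 0.76 and 0.70 for Hbb-bs and 0.76 and 0.68 for Hba-a1.

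**Figure D5:**
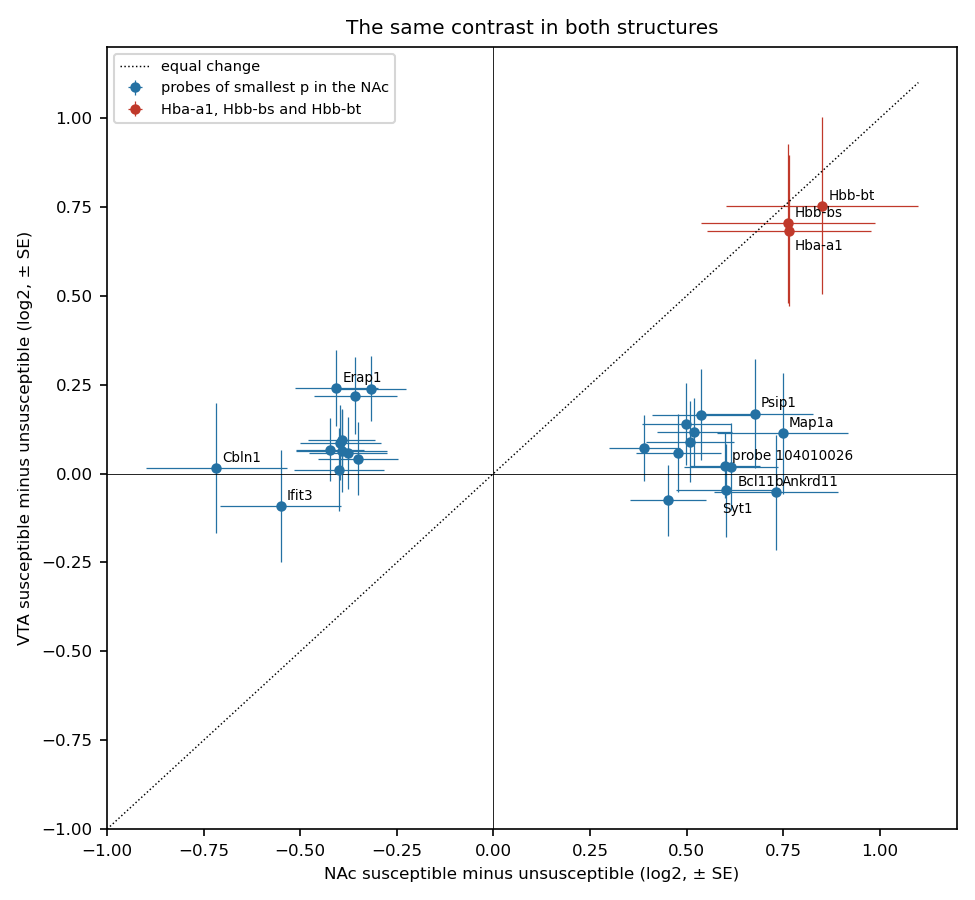
Susceptible minus unsusceptible difference (log2, bars are ± 1 SE of the limma model) in the NAc (x axis) and the VTA (y axis) for the called probe with the 24 named genes of smallest p and for 3 globin genes. Globins lie near the dotted line of equal change, while the named genes lie between -0.09 and 0.24 in the VTA.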

How the data were processed

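RNA of 18 pools was linearly amplified, labelled with biotin and hybridised to 1-colour arrays, per the labels' protocols. Each array's table, as deposited, gives 1 linear intensity per probe (61.9 to 73427.2), with no background or detection column, so whether a dim probe lay above background is unknown. Software of the scanner is not given in the sources used here. A series table of intensity values deposited by the authors, for which the submitters' processing notes name affy, served as an alternative. Of 44547 probes, 42 were empty on all arrays. The log2 intensities were quantile normalized across all 18 arrays. The number of arrays limits the precision.

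A group-means model of the 18 arrays was fitted with limma 3.58.1 in R 4.3.3 (lmFit and eBayes with an intensity trend, 12 residual and 11.7 prior degrees of freedom). Tests were two-sided, with Benjamini-Hochberg adjustment over 44505 probes within a contrast and a threshold of 0.05. Errors of differences are the model's SE. The code was tested on simulated data. The platform annotation gives 1 gene for 28482 probes, several for 11 and none for 16012. A gene in a list is taken by its brightest probe, and a bright probe has a mean of at least 7.39. Named genes were to be up to 15 called ones in each direction, filled to 12 with the named bright probes of smallest p whose pools did not overlap, then the 3 smallest-p members (or fewer) of each list at an unadjusted p below 0.05, then a set of fixed genes. Members, lists and the rule were chosen with earlier results of these data known, and the globins, S100a8, S100a9, Lcn2 and Osbpl8 because those had shown a difference from control. Tra2b, Ifit1, Ifit2, Hbb-b2, Alas2, Slc4a1, Epb42 and Slc17a6 were added after their values were seen. No set test was run. Alternatives were the normalization, background correction, offset, probe filter, trend, array weights, replicate block, smaller fits and leaving out each pool. One gene list is not reported here.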

Additional observations from a re-analysis of the deposited data

How the results depend on the processing

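The count of called NAc probes was 0 with median scaling, 0 with normexp and an offset of 50, 0 with the structure fitted alone and 0 to 0 with any 1 of the 6 pools left out, so the single call rested on every pool. It was 12 with the 6 arrays fitted alone, all higher in susceptible pools. Those 12 were 5 unnamed probes, 3 probes of Hbb-bs and 1 each of Hbb-bt (adjusted p 0.0440), Map1a (0.0344), Plec and Rbm5, chosen here after their values were seen. It was 1 with the authors' table, 50 added before log2, bright probes only, no intensity trend, array weights or a replicate block. Same-numbered NAc pools of the classes had low correlations of their deviations (0.0791, -0.0224 and 0.0255). The highest with another number were 0.0333, 0.0648 and -0.00797. Between NAc and VTA the correlations were 0.0229, 0.144 and 0.17 for susceptible pools, where the highest with another number was -0.0046. For unsusceptible pools they were 0.0315, 0.0451 and 0.0334, beside 0.0254, 0.00943 and 0.0331 with another number. Only 0.144 and 0.17, for susceptible pools 2 and 3, stood out, and the labels give no such pairing. With the replicate block, which gives a number the same effect in every group, the difference between the structures also had 0 calls. Such a block cannot model a pairing of the structures within a class, so that pairing was not tested. The VTA count ranged from 0 to 138 and that of the difference between structures from 0 to 8 with a pool left out, the high values both without VTA unsusceptible pool 2. Among bright probes only, 63.2% of those at an unadjusted p below 0.05 were higher in susceptible pools, where the share was 55.5% over all probes and 32.6% with median scaling. Median scaling also turned Cx3cr1 to -0.10, Nr1d2 to -0.00661, Hnrnpk to -0.10, Gabbr1 to -0.13, Kcnh1 to -0.0838 and Pde10a to -0.0141; turns of genes at an unadjusted p above 0.05 were not counted. The 24 named genes of smallest p kept their sign in every alternative run for them. They were chosen for pools that did not overlap, so leaving out 1 pool could hardly turn a sign. Their constancy there follows from the choice. The red cell median ran from 0.26 (median scaling) to 0.69 (without unsusceptible pool 3), and the interferon median from -0.31 (median scaling) to -0.04. Of 680 list medians under alternatives, 90 moved by more than the spread between pools.

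With 3 pools of 4 animals a class, a median probe had an SE of 0.10. Dim probes carry an unknown share of background.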

Other observations

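The only probe that differed by more than 1 log2 unit between the classes was a probe of Krr1, a ribosome assembly factor, at 1.82 ± 1.55 (unadjusted p 0.252). In 5 of the 18 arrays it lay at 12.6 to 13.19 and in the other 13 at 7.10 to 7.38. Among the 5 were susceptible pool 2 and control pools 1 and 2 of the NAc, at 12.86 to 13.11, and susceptible pool 1 and control pool 2 of the VTA. The other 3 Krr1 probes gave differences of -0.12, -0.05 and -0.10 between the classes and lay between 7.23 and 8.71 in all arrays. No cause was tested.

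With quantile normalization, the direction of small differences went with the kind of probe. Of 21337 probes with identifiers from 100000000 upward, 2.85% were higher and 1.28% lower at an unadjusted p below 0.05, and of the 23168 with smaller identifiers 2.08% were higher and 2.59% lower. Probes of the first kind made up 7 of the 12 named higher genes and 0 of the 12 named lower ones. Those genes were drawn from named bright probes without overlap, and the share of the first kind among such probes was not counted. Bright probes made up 39.2% of the first kind and 59.9% of the others. Over all probes at an unadjusted p below 0.05, 55.5% were higher, and 32.6% with median scaling. The kinds were not counted apart on that scale. What sets these identifiers apart on the array is not stated in the sources used here.

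Ttr, which codes for the choroid plexus carrier protein transthyretin, was at 10.30, 8.73 and 8.57 in unsusceptible and 9.30, 8.62 and 8.57 in susceptible pools. Its highest value was in unsusceptible pool 1, the pool that was also highest for Slc17a6 and Cbln1.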
